A study of Homo sapiens with 7 samples.

Results

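ROCK1, IK, DGCR5, F13B, RIF1, CCNG2, TUBA1A and F2RL2 are 8 genes outside the antiviral response whose signal differed between 16 h and 6 h of interferon treatment in Huh7 cells, a human hepatoma line. They were picked for a difference between 16 h and 6 h with all 3 interferons or with both IFN-λ, so that difference is given below as a description with no test. The array held 18336 genes with a probe of their own, of which 12835, all 8 of these among them, lay above a dim level set at the 30th percentile of genes. Treatment lasted 16 h or 6 h. The interferons were IFN-α, given at 10 IU/ml, and the type III proteins IFN-λ1 and IFN-λ4, both given at 20 ng/ml. Untreated cells were taken at 0 h. Each of these 7 conditions was 1 array, so differences between single arrays have no replicate check. No untreated culture was analysed here at 6 h or 16 h, so the length of treatment and the time in culture cannot be told apart. Of the 8 genes, 6 were higher and 2 lower at 16 h than at 6 h.

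The 8 genes have unrelated jobs. IFN-α acts through the type I receptor and the IFN-λ proteins through the type III receptor, and both turn on antiviral genes within hours. ROCK1 is a kinase that raises actomyosin contraction. IK, also called RED, is a splicing factor of the precatalytic spliceosome, and RIF1 shields broken DNA ends from resection and sets the timing of replication. CCNG2 is an unusual cyclin linked to cell cycle arrest and is a known target of FOXO transcription factors. DGCR5 is a long non-coding RNA of the DiGeorge syndrome region. F13B is the carrier subunit of coagulation factor XIII, made by hepatocytes. TUBA1A is an α-tubulin best known from developing neurons, and F2RL2 encodes PAR3, a receptor of the protease-activated family that thrombin can cleave.

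Array-wide values come first because they differ between arrays. The median intensity of the deposited values was 633, 551 and 552 on the 16 h arrays of IFN-α, IFN-λ1 and IFN-λ4, and 494, 601 and 509 on the 6 h arrays of IFN-α, IFN-λ1 and IFN-λ4, against 609 on the untreated array. The 6 h arrays of IFN-α and IFN-λ4 had the lowest medians. Intensities below are as deposited, and log2 differences are between quantile-normalized values.

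**Figure D1:**
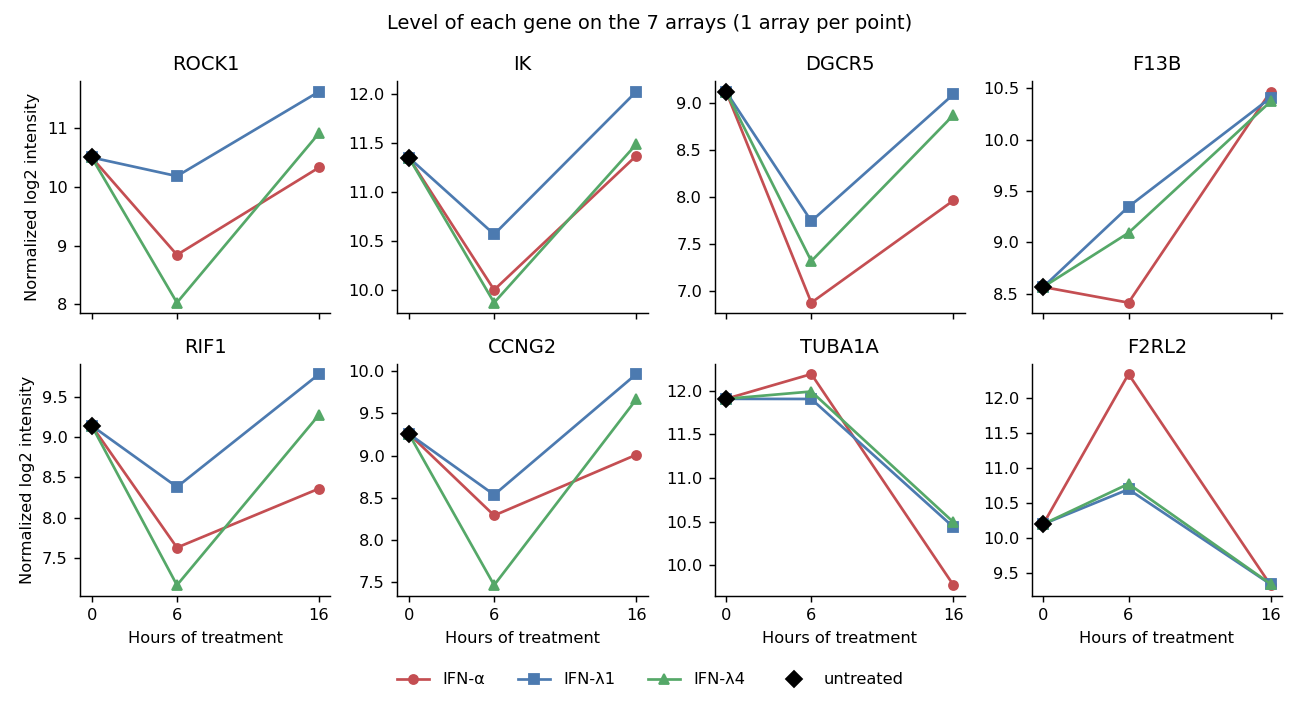
Normalized log2 intensity of the 8 genes (y axis, 1 panel per gene) against hours of treatment (x axis), with 1 line per interferon and the untreated array at 0 h as a black diamond; each point is 1 array. ROCK1, IK, DGCR5, RIF1 and CCNG2 had their lowest values at 6 h, F13B its highest at 16 h, and TUBA1A and F2RL2 their lowest at 16 h.

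Of the 12835 genes, 42 (0.327%) were at least 2-fold higher and 30 (0.234%) at least 2-fold lower at 16 h than at 6 h with both IFN-λ. With all 3 interferons these were 8 genes (0.0623%) and 11 genes (0.0857%). All 8 of the genes described here met the limit with both IFN-λ, and 6 met it with all 3. RIF1 and CCNG2 missed it with IFN-α, with log2 differences of 0.73 and 0.72. The smallest difference of the 8 genes with an IFN-λ was that of F13B with IFN-λ1, at 1.06. These counts restate the choice of the genes. In RNA from whole cultures, fewer cells that express a gene and less of its RNA per cell cannot be told apart.

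**Figure D2:**
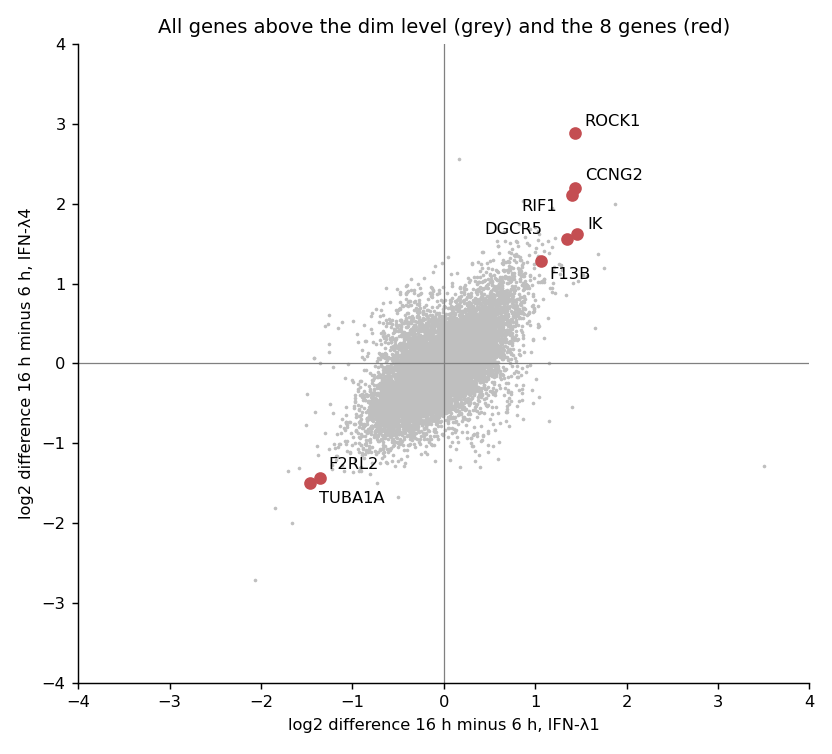
The log2 difference of 16 h minus 6 h with IFN-λ1 (x axis) and with IFN-λ4 (y axis) for 12835 genes (grey points), with the 8 genes in red. ROCK1 stood at 1.44 and 2.88 and TUBA1A at -1.47 and -1.50, and 4 genes lay outside the axes.

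ROCK1, IK, RIF1, CCNG2 and DGCR5 had a common course: all 5 were below the untreated array on all 3 arrays of 6 h, and at 16 h they lay between -0.78 and 1.12 log2 units from it, apart from DGCR5 after IFN-α at -1.16. ROCK1, the contractility kinase, read 1359, 3161 and 1949.7 units at 16 h with IFN-α, IFN-λ1 and IFN-λ4, against 404, 1239.5 and 231 units at 6 h with the same interferons, and 1516 units untreated. The 16 h minus 6 h differences were 1.49, 1.44 and 2.88 log2 units, a mean of 1.93 ± 0.82 (SD over the 3 interferons). All 3 arrays of 16 h were higher than all 3 of 6 h, and the 6 h value was lowest with IFN-λ4. Against untreated, ROCK1 differed by -0.17, 1.12 and 0.41 log2 units at 16 h and by -1.66, -0.32 and -2.47 at 6 h.

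IK, the splicing factor, had the most even difference of the 5. It read 2641, 4152 and 2904 units at 16 h with IFN-α, IFN-λ1 and IFN-λ4, against 914, 1607 and 872 units at 6 h, and 2696 units untreated. The differences were 1.37, 1.46 and 1.62 log2 units, a mean of 1.48 ± 0.13 (SD, 3 interferons), and the times did not overlap. Against untreated, IK differed by 0.02, 0.67 and 0.14 log2 units at 16 h and by -1.35, -0.78 and -1.48 at 6 h.

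RIF1, the protector of DNA ends, read 379, 864 and 613 units at 16 h with IFN-α, IFN-λ1 and IFN-λ4, against 179, 361 and 125 units at 6 h, and 611 units untreated. Its differences were 0.73, 1.40 and 2.11 log2 units, a mean of 1.41 ± 0.69 (SD, 3 interferons). In RIF1 the times overlapped, because the IFN-α array of 16 h, at a normalized log2 level of 8.36, was just under the IFN-λ1 array of 6 h at 8.38. Times that lie apart in the other genes follow in part from how the genes were chosen. The share of all genes with such times is not given here. CCNG2, the FOXO-linked cyclin, read 583, 987 and 809 units at 16 h, against 276, 403 and 154 units at 6 h, and 661 units untreated. Its differences were 0.72, 1.43 and 2.20 log2 units, a mean of 1.45 ± 0.74 (SD, 3 interferons). In both genes the difference was smallest with IFN-α and largest with IFN-λ4, where the 6 h value of both, like that of ROCK1, lay below the dim level of 265 units.

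The DGCR5 RNA has 2 probes, 1 of them listed under DGCR9, an older name that RefSeq now gives as a synonym of DGCR5. That brighter probe stood for the gene and read 295, 536 and 453 units at 16 h with IFN-α, IFN-λ1 and IFN-λ4, against 107, 233 and 140.1 units at 6 h, and 605 units untreated. Its differences were 1.09, 1.35 and 1.55 log2 units, a mean of 1.33 ± 0.23 (SD, 3 interferons). The untreated array held its highest value, and the IFN-α array of 16 h differed from it by -1.16 log2 units.

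The order of the conditions was nearly the same in these 5 genes. At 16 h the arrays ranked IFN-λ1, IFN-λ4 and IFN-α in all 5, and at 6 h IFN-λ1 was the highest in all 5. The lowest array of 6 h was IFN-λ4 in ROCK1, IK, RIF1 and CCNG2, and IFN-α in DGCR5. These 2 arrays were also the pair with the lowest median intensity, and the part of that in the levels was not tested. When each array was only centred on its median, the mean differences were 1.94 for ROCK1, 1.43 for IK, 1.34 for DGCR5, 1.43 for RIF1 and 1.47 for CCNG2. With the deposited scaling they were 2.06, 1.54, 1.45, 1.55 and 1.59 in the same order. Centring removes only a constant per array, so these values do not test the part of the array medians. Over the 7 arrays the 10 pairs of these 5 genes correlated with Pearson's r of 0.85 to 0.97, a description only, since all values share the same arrays and the genes were chosen for a like difference.

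**Figure D3:**
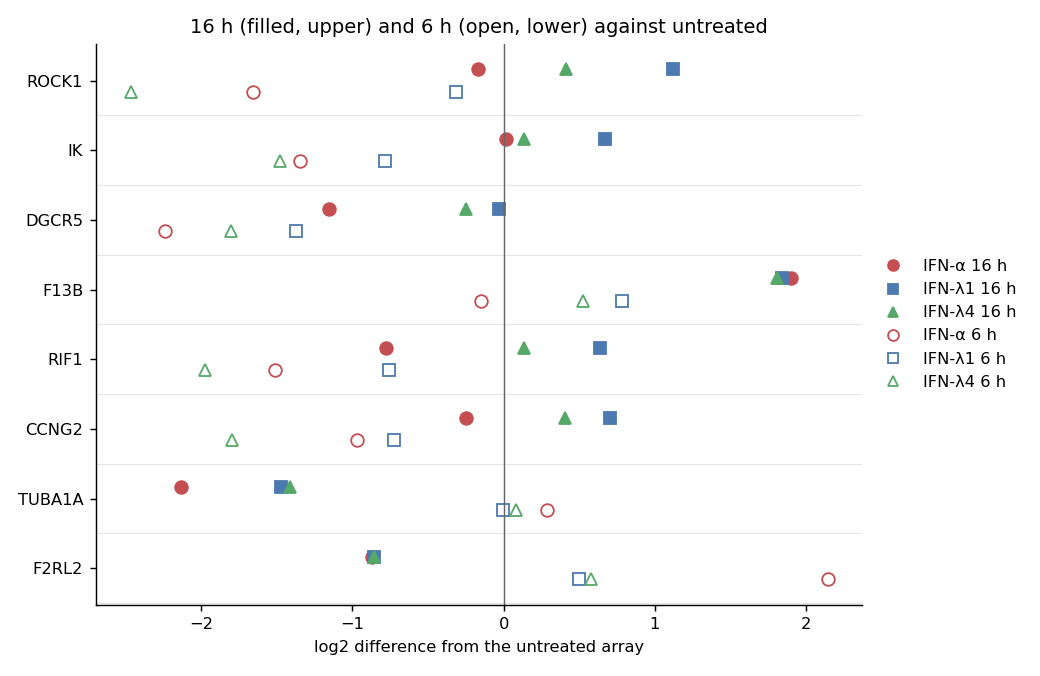
The log2 difference of each treated array from the untreated array (x axis) for the 8 genes (rows), with 16 h as filled symbols and 6 h as open symbols. The open symbols of ROCK1, IK, DGCR5, RIF1 and CCNG2 lie left of 0, the filled symbols of F13B lie between 1.81 and 1.90, and those of TUBA1A and F2RL2 lie left of 0.

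Promoters of 4 of the 5 genes with the 6 h low are shown because these genes moved together and a reader can see whether they carry the interferon-stimulated response element. Each line is 300 bases from RefSeq on GRCh38.p14, 250 before the start and 50 after it, 5′ to 3′, with matches to the motifs named below in capitals. ROCK1 is the window chr18:21111764-21112063 on the minus strand, IK is chr5:140647579-140647878 on the plus strand, RIF1 is chr2:151409652-151409951 on the plus strand and CCNG2 is chr4:77156957-77157256 on the plus strand.
ROCK1: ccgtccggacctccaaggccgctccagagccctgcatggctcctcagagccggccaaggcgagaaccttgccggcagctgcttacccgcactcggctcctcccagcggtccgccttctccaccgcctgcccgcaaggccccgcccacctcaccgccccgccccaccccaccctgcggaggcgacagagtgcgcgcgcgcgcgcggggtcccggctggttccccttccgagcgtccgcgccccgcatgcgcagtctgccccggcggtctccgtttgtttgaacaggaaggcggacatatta
IK: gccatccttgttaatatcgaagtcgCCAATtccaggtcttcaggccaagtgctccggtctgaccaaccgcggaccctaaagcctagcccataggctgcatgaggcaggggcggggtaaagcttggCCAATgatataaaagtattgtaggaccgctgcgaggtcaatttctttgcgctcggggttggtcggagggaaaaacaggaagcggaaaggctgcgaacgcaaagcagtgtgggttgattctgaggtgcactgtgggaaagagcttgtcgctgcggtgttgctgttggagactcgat
RIF1: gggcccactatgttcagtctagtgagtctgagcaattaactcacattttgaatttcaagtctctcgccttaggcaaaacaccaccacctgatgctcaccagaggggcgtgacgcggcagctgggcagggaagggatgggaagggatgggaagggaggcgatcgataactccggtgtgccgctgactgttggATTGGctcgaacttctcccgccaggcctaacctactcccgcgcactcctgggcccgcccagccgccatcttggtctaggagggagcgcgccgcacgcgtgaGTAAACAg
CCNG2: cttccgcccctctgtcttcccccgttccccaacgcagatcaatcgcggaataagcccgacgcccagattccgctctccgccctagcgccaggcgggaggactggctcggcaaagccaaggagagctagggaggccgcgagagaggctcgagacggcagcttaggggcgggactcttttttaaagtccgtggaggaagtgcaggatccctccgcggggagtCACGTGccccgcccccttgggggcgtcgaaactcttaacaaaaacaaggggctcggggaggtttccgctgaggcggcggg

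RefSeq promoter windows matched 7 of the 8 genes, DGCR5 having none in the table. They were searched on both strands for the interferon-stimulated response element (GAAA, any 2 bases, GAAA), the forkhead motif TGTTTAC, the E-box CACGTG and the CCAAT box, none of which overlapped another in these windows. The response element, which 3.57% of 35116 promoters hold, was in 0 of the 7. The forkhead motif, in 3.42% of promoters, was in RIF1 on the minus strand from base 43 after the start, and not in the window of CCNG2. The E-box, in 7.26%, was in CCNG2 from position -30, counted from the start. The CCAAT box, in 34.6%, was in IK, RIF1 and TUBA1A. The GC content of the windows was 72.0% in ROCK1, 54.3% in IK, 59.3% in RIF1 and 64.7% in CCNG2, against a median of 58.7% over all promoters in the table. A match is a description of these letters only.

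The other probes of ROCK1 and CCNG2 did not follow the same course, while the dim other probe of DGCR5 followed it with smaller differences. A second ROCK1 probe, listed for ROCK1 and its pseudogene ROCK1P1, read 11082, 14893 and 14809 units at 16 h with IFN-α, IFN-λ1 and IFN-λ4, against 18943, 14162 and 12802 units at 6 h, and 16422 units untreated. Its differences were -0.61, 0.14 and 0.26 log2 units, against 1.44 to 2.88 on the probe of ROCK1 alone. The second CCNG2 probe, listed for CCNG2 alone, read 345, 359 and 307 units at 16 h, against 219, 386 and 292 units at 6 h, and 417 units untreated. Its differences were 0.26, 0.06 and -0.02, so the 2 probes of CCNG2 disagree, and averaging them gives the gene a mean difference of 0.78. The probe listed as DGCR5 itself was below the dim level, at 85.1, 69.0 and 65.3 units at 16 h and 50.7, 72.9 and 55.3 units at 6 h, against 96.7 units untreated. Its differences were 0.42, 0.13 and 0.20 with IFN-α, IFN-λ1 and IFN-λ4. At 6 h it lay -0.72, -0.40 and -0.42 log2 units from untreated with the same interferons. IK, RIF1, F13B and F2RL2 had 1 probe each, so their values could not be set against a second one. Whether the probes read different transcripts of a gene was not tested.

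**Figure D4:**
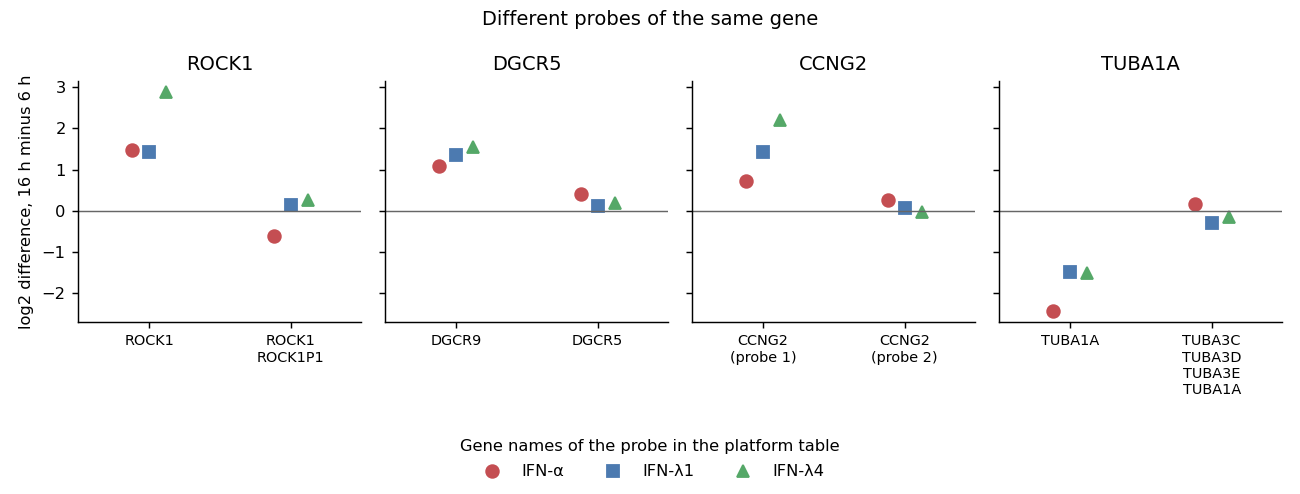
The log2 difference of 16 h minus 6 h (y axis) for each probe of the 4 genes with more than 1 probe, labelled on the x axis with the gene names of the probe, with 1 symbol per interferon. The left probe in each panel stood for the gene, and the other probe lies between -0.61 and 0.42 in all 4 panels.

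F13B, the carrier subunit of factor XIII, was above the untreated level at 16 h with all 3 interferons and had no common low at 6 h. It read 1485, 1362 and 1329.9 units at 16 h with IFN-α, IFN-λ1 and IFN-λ4, against 299, 694 and 495 units at 6 h, and 412 units untreated. At 16 h the 3 arrays stood 1.90, 1.84 and 1.81 log2 units above untreated, a spread of 0.097 between the highest and the lowest. At 6 h they stood at -0.15, 0.78 and 0.53, so the IFN-α array was below untreated and both IFN-λ arrays were above it. The 16 h minus 6 h differences were 2.06, 1.06 and 1.28, a mean of 1.47 ± 0.52 (SD, 3 interferons), and the times did not overlap. F13A1, which encodes the catalytic partner, had differences of -0.21, -0.19 and 0.15.

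TUBA1A, the α-tubulin, was at its untreated level at 6 h and lower at 16 h. It read 947, 1389 and 1443 units at 16 h with IFN-α, IFN-λ1 and IFN-λ4, against 4598, 4029 and 3998 units at 6 h, and 3890.5 units untreated. At 6 h the arrays lay 0.28, -0.0014 and 0.08 log2 units from untreated, and at 16 h -2.14, -1.47 and -1.41. The 16 h minus 6 h differences were -2.42, -1.47 and -1.50, a mean of -1.80 ± 0.54 (SD, 3 interferons). The level was thus 5.35-fold lower after IFN-α, and among the type III proteins 2.77-fold lower after IFN-λ1 and 2.83-fold lower after IFN-λ4. A probe listed for TUBA3C, TUBA3D, TUBA3E and TUBA1A together read 2071, 2372 and 2283 units at 16 h, against 1650.4, 3042 and 2397 units at 6 h, and 3183 units untreated, with differences of 0.16, -0.30 and -0.14.

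Near relatives of TUBA1A went different ways. TUBA1B, the widely expressed α-tubulin, had differences of -0.15, -0.04 and 0.08 with IFN-α, IFN-λ1 and IFN-λ4, and TUBA1C had 1.05, 0.53 and 0.94. TUBB3, the β-tubulin known as a marker of neurons, had -1.84, -1.20 and -1.01. α-Tubulin genes are close paralogs, and a probe of 1 may take signal from another. The TUBA1A and TUBA1C probes differed in sign with all 3 interferons. Whether the TUBA1A probe takes signal from other α-tubulin genes was not tested.

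F2RL2, the gene of the thrombin-cleaved receptor PAR3, was above untreated at 6 h and below it at 16 h. It read 712, 644 and 644 units at 16 h with IFN-α, IFN-λ1 and IFN-λ4, against 5111, 1764 and 1685 units at 6 h, and 1239.6 units untreated. At 16 h the 3 arrays lay within 0.016 log2 units of each other, at -0.87, -0.86 and -0.86 from untreated. At 6 h they lay at 2.14, 0.50 and 0.58, with IFN-α far above both IFN-λ. The 16 h minus 6 h differences were -3.02, -1.36 and -1.43, a mean of -1.93 ± 0.94 (SD, 3 interferons), which is 8.09-fold, 2.56-fold and 2.70-fold lower. Of its family, F2RL1, the gene of the trypsin receptor PAR2, had differences of -0.84, -0.62 and -0.68, and F2R, the gene of the main thrombin receptor PAR1, had 0.20, 0.70 and 0.54. F2RL3 was below the dim level, at 67.1 to 118 units at 16 h and 68.7 to 138 units at 6 h, against 106 units untreated.

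Comparisons other than the one on which the genes were chosen were tested with limma over all 12835 genes. In the comparisons between interferons the spread comes from how the time differences vary between interferons. The choice of the genes used those time differences, so the SE and p of the 8 genes there are a description only. Between the 6 treated arrays and the untreated array 15 genes (0.117%) passed an adjusted p of 0.05, and 0 of the 8 genes did, with 257 genes at an unadjusted p under 0.05 and none of the 8 among them. F13B had a difference of 1.12 ± 0.70 log2 units (SE, adjusted p = 0.999, limma) and was higher than untreated on 5 of 6 treated arrays. DGCR5 had a difference of -1.14 ± 0.70 (adjusted p = 0.999, limma) and was lower on 6 of 6. TUBA1A had a difference of -0.78 ± 0.81 and F2RL2 one of 0.11 ± 0.95, and the sign of F2RL2 turned to -0.16 without the IFN-α arrays. The standard errors here hold the differences between 6 h and 16 h, which are large in all 8 genes, and the untreated side was 1 array. Of the 31 measured antiviral effectors 9 rose in the same comparison, where their median difference was 2.61, against -0.02 over all genes. The list of antiviral effectors was written with their response in these data known.

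Both IFN-λ against IFN-α, with time as a block, gave 20 genes (0.156%) past an adjusted p of 0.05, and 0 of the 8 genes. DGCR5 had the smallest p of the 8, at 0.84 ± 0.18 log2 units (adjusted p = 0.114, limma), and was higher with each IFN-λ than with IFN-α at both times. RIF1 had 0.66 ± 0.28 (adjusted p = 0.302, limma) and F2RL2 -0.80 ± 0.36 (adjusted p = 0.32, limma). Without the IFN-λ4 arrays 418 of 12835 genes passed. Among them were ROCK1 at 1.31 ± 0.33 (adjusted p = 0.0161, limma), DGCR5 at 0.997 ± 0.24 (adjusted p = 0.00976, limma) and RIF1 at 1.09 ± 0.27 (adjusted p = 0.0143, limma). The spread in that fit comes only from the gap between the IFN-α and IFN-λ1 time differences. The choice of the genes used those differences, so the calls of ROCK1, DGCR5 and RIF1 are a description only. Without the IFN-λ1 arrays, ROCK1, IK and CCNG2 had differences of -0.11, -0.0063 and -0.08.

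IFN-λ4 against IFN-λ1, with time as a block, gave 0 genes (0%) past an adjusted p of 0.05 in limma and 304 at an unadjusted p under 0.05. ROCK1 had a difference of -1.43 ± 0.38 (SE) with an adjusted p of 0.9995 in limma, and was lower with IFN-λ4 at both times. RIF1 had -0.86 ± 0.33, CCNG2 -0.69 ± 0.35 and IK -0.62 ± 0.21, each lower with IFN-λ4 at both times and each with the same adjusted p. F13B, TUBA1A and F2RL2 had -0.15 ± 0.29, 0.07 ± 0.29 and 0.04 ± 0.42. A missed threshold with 2 residual degrees of freedom does not show that the 2 IFN-λ act alike.

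Genes with the most similar course over the 7 arrays were picked by Pearson's r among 3244 genes with a range of at least 1 log2 unit. ROCK1 was nearest to ZNF518A (r = 0.996), PIKFYVE (0.993) and EID1 (0.99). IK was nearest to the RNA helicase gene DDX1 (0.991), the histone chaperone gene NASP (0.99) and AHCYL2 (0.988). RIF1 was nearest to MAN1A1 (0.993), CWF19L2 (0.991) and RAB11FIP1 (0.988), and CCNG2 to DLG1 (0.993), CEP170 (0.991) and PAXBP1 (0.987). DGCR5 was nearest to FUBP1 (0.995), MT3 (0.992) and WAC-AS1 (0.988). Each of these 5 genes had between 108 and 141 genes at an r of at least 0.9, while F2RL2 had 74, TUBA1A 51 and F13B 11.

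The mean 16 h minus 6 h differences of those 15 nearest genes were between 0.64 and 1.07 log2 units, smaller than those of the 5 genes they resemble. The 5 genes were chosen for the size of this difference and their neighbours by a correlation that ignores size. Smaller values in the neighbours are therefore no result. Of the 15, 7 had further probes, 9 in all, and the mean difference had the same sign on 4 of these probes and the opposite sign on 5. Of the further DLG1 probes 1 gave 1.23 and the other -0.43, while the further NASP probe gave -0.35. These neighbours were chosen by their brightest probe's course, which favours that probe. For TUBA1A, whose nearest genes were GPSM1 (r = 0.994), NT5DC2 (0.987) and the microtubule-associated protein gene MAP1B (0.983), all 4 further probes had the same sign, from -0.76 to -0.13. F2RL2 was nearest to GAB2 (0.992), OSGIN1 (0.976) and RILP (0.976), and F13B to ENPP2 (0.98), ZCCHC8 (0.96) and ARRDC3 (0.94).

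MAP1B and TUBB3, which encode a microtubule-binding protein and a tubulin of neurons, were lower at 16 h beside TUBA1A. MAP1B read 1120, 1630 and 1850 units at 16 h with IFN-α, IFN-λ1 and IFN-λ4, against 3880, 3590 and 3610 units at 6 h, and 2930 units untreated. TUBB3 read 2740, 5330 and 6230 units at 16 h, against 9940, 12800 and 13000 units at 6 h, and 6870 units untreated. OSGIN1, an oxidative stress response gene, had the course of F2RL2 at 6000, 5140 and 5650 units at 16 h, against 43400, 11600 and 14200 units at 6 h, and 6980 units untreated. ENPP2, which encodes the secreted enzyme autotaxin, read 9750, 13000 and 12700 units at 16 h, against 2800, 6830 and 3880 units at 6 h, and 3340 units untreated.

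Genes that work with the 8 were described next, from lists written for 7 of the genes and without the 8 themselves. In the limma comparison of 16 h with 6 h, 0 of 12835 genes (0%) passed an adjusted p of 0.05 and 1941 had an unadjusted p under 0.05, so no member of any list passed. Leaving out IFN-α made that count 2674, and leaving out IFN-λ4 made it 32. The median over all genes was -0.05 log2 units, and -0.16 under median centring. Medians near 0 in the lists below, those of FOXO targets and of leukocyte, fibroblast and endothelial markers among them, changed sign under some alternatives and give no direction. ROCK2, the paralog of ROCK1, had differences of -0.47, 0.34 and 0.23 with IFN-α, IFN-λ1 and IFN-λ4.

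Spliceosome genes around IK lay close to the median of all genes. The 19 measured had a median of -0.05, 0 with an unadjusted p under 0.05, and MFAP1 (0.51), TXNL4A (-0.35) and PRPF3 (-0.33) had the largest differences. Double-strand break repair genes, 24 beside RIF1, had a median of -0.05 and 4 with an unadjusted p under 0.05, with the shieldin gene SHLD2 at 0.57, the adaptor gene MDC1 at -0.52 and the phosphatase gene PPP1CC at 0.44. FOXO targets and quiescence genes, 22 beside CCNG2, had a median of -0.01 and 3 such genes, with catalase (CAT) at 0.93, GADD45B at -0.62 and the insulin receptor (INSR) at -0.60. CCNG1, the paralog of CCNG2, had differences of -0.25, 0.56 and 0.29. Of the 16 measured genes near DGCR5 in the DiGeorge region the median was -0.17 and 3 had an unadjusted p under 0.05, with PRODH at -0.60, ARVCF at -0.49 and TXNRD2 at -0.39.

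Coagulation and fibrinolysis genes held members on the same side as F13B. Of 25 measured beside F13B, 16 were higher and 9 lower at 16 h, with a median of 0.07 that was -0.06 under median centring, and 6 had an unadjusted p under 0.05. Over all 12835 genes 5621 were higher and 7214 lower at 16 h, and 1941 had an unadjusted p under 0.05 in limma. The lists were not tested against these shares. Prothrombin (F2) had differences of 0.91, 0.71 and 0.85 with IFN-α, IFN-λ1 and IFN-λ4, a mean of 0.82 ± 0.15 (SE, adjusted p = 0.182, limma). The fibrinogen α chain gene FGA had 0.76, 0.51 and 0.85, a mean of 0.71 ± 0.13 (SE, adjusted p = 0.182, limma). VWF, which endothelial cells make, had a mean of -0.75 ± 0.17 (SE, adjusted p = 0.199, limma). Tubulins, 15 beside TUBA1A, had a median of -0.16, with 2 higher and 13 lower and 5 at an unadjusted p under 0.05, and besides TUBB3 and TUBA1C the largest difference was that of TUBA4A (-0.86). The 17 receptor genes and partners beside F2RL2 had a median of -0.22 and 2 such genes, with F2RL1 (-0.71), GNAI3 (-0.56) and F2R (0.48) the largest.

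**Figure D5:**
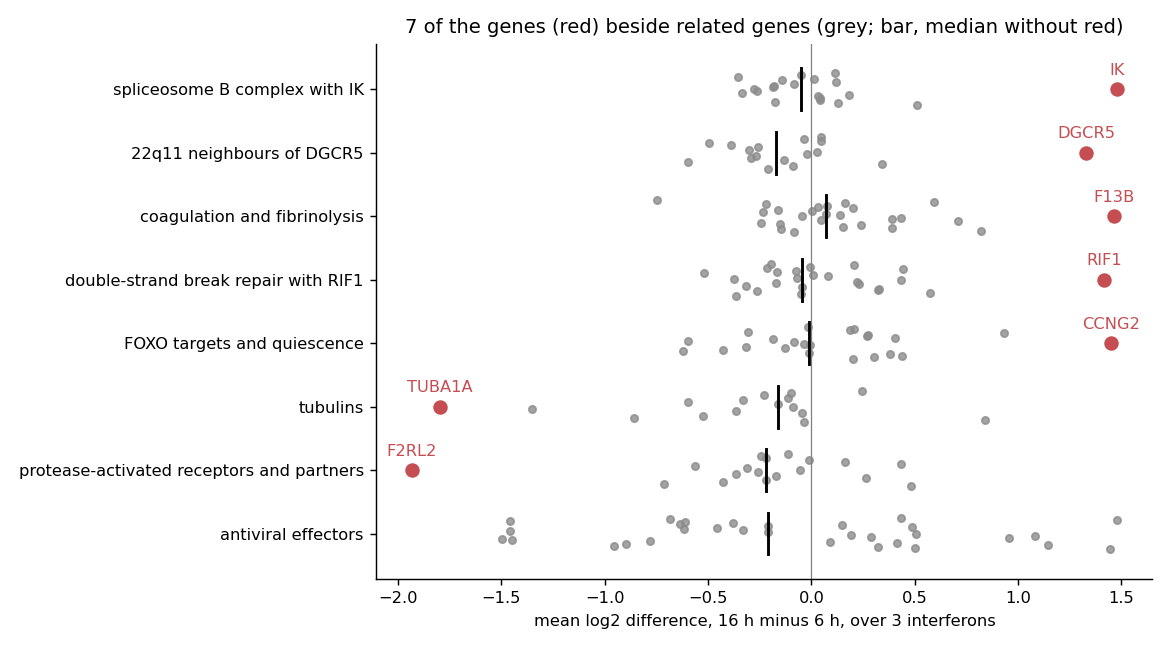
The mean log2 difference of 16 h minus 6 h over the 3 interferons (x axis) for 7 of the genes (red) and the genes listed with each (grey; black bar, median of the grey points), 1 row per list. IK, DGCR5, F13B, RIF1 and CCNG2 lie right of the grey points in their rows, and TUBA1A and F2RL2 lie left of theirs.

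Antiviral effectors did not share a single course from 6 h to 16 h. The 31 measured had a median of -0.21 in the mean difference over interferons, and 11 had an unadjusted p under 0.05. Taken separately, their median difference was -1.03 with IFN-α, 0.40 with IFN-λ1 and 0.23 with IFN-λ4. BST2, which tethers virions to the cell surface, had 1.38, 1.69 and 1.36, and IFIT5 and RIGI had means of -1.50 and -1.46, mostly from IFN-α at -3.60 and -3.37. The direction of this list's median turned to 0.38 without the IFN-α arrays.

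The labelled cell line was checked by markers. All 16 hepatocyte markers with a probe, out of 18 listed, were above the dim level, and their summed intensity was 2730000 to 2750000 at 16 h and 2680000 to 2730000 at 6 h, against 2630000 untreated. Their median difference was 0.08 (-0.11 under median centring), with FGA at 0.71, FGG at 0.39 and ALB at 0.38. The summed intensity of 11 leukocyte markers was 19800 to 21400 at 16 h and 15400 to 21800 at 6 h, against 19700 untreated, and LYZ (0.60), CD14 (0.49) and MS4A1 (0.38) differed most. That of 10 fibroblast and stellate markers was 10300 to 11300 at 16 h and 7880 to 11100 at 6 h, against 11700 untreated, with LUM at 0.97, PDGFRB at -0.82 and RGS5 at 0.56. That of 10 endothelial markers was 5630 to 6240 at 16 h and 5090 to 6250 at 6 h, against 5660 untreated, with VWF as above, PECAM1 at 0.09 and CLEC4G at 0.07. The median differences of these 3 lists were 0.02, 0.12 and 0.02. Above the dim level were 7 of 11 leukocyte, 6 of 10 fibroblast and stellate and 5 of 10 endothelial markers with a probe. So were 12835 of all 18336 genes. Of the measured genes, 4 of 16 hepatocyte, 2 of 7 leukocyte, 3 of 6 fibroblast and 1 of 5 endothelial markers had an unadjusted p under 0.05.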

How the data were processed

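Huh7 messenger RNA was amplified from total RNA, labelled with Cy5 and hybridized to 7 one-colour arrays, per the labels' protocols. The deposited table holds 1 intensity per probe (31741 probes) as scaled by the authors; how the arrays were scanned, background-corrected and scaled is not stated there. Values were set to at least 1, turned to log2 and, because array medians differed by 0.357 log2 units (limit 0.2), quantile normalized. Probes took their symbols from the platform table, updated through RefSeq: 24740 probes had 1 symbol, 977 several and 6024 none, and of the single symbols 22722 were current, 1948 updated and 70 unmatched. Each gene was read from its brightest probe on average, and genes above the 30th percentile were kept. The 8 genes had 12 probes, 2 of them listed for several genes.

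limma 3.58.1 (R 4.3.3, variance trend, Benjamini-Hochberg) fitted time and interferon together on 6 arrays, and treated against untreated on 7. Python 3.11.15, numpy 2.4.6, pandas 2.3.3 and matplotlib 3.10.9 did the rest. The fits were tested on simulated arrays with known shifts. Between 16 h and 6 h they recovered 30% of 2-fold and 80% of 4-fold shifts. For IFN-λ against IFN-α these were 1% and 59%, and for IFN-λ4 against IFN-λ1 0% and 26%. For treated against untreated they were 43% and 86%, with no time differences simulated. The number of arrays limits the precision.

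The genes and lists were chosen with earlier results of these data known. Named were the 8 genes and their paralogs, from each list the 3 genes that differed most between times, and the 3 nearest genes by correlation. MAP1B and TUBB3 belong to these, and OSGIN1 and ENPP2 were singled out after their values were seen. Lists covered spliceosome, DiGeorge region, coagulation and fibrinolysis, break repair, FOXO targets and quiescence, tubulins, protease-activated receptors, antiviral effectors, and hepatocyte, leukocyte, fibroblast and stellate, and endothelial markers; a further list is not reported here. Alternatives were median centring, the deposited scaling, no filter on dim genes, a floor at the 30th percentile, the mean over probes, fits lacking the variance trend or the block, and the omission of each interferon in turn; the use of a gene's other probe and the list medians under these settings were added after seeing the data.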

Additional observations from a re-analysis of the deposited data

Results flagged for a closer look

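On some probes IFN-α stood on the opposite side of 0 from both IFN-λ. None of these differences was tested, and each array stands alone. At 16 h against untreated, ROCK1 was 0.41 and 1.12 log2 units higher with IFN-λ4 and IFN-λ1 but differed by -0.17 with IFN-α, a gap of 0.94. RIF1 was at 0.14 and 0.64 with IFN-λ4 and IFN-λ1 and at -0.78 with IFN-α, a gap of 1.17. CCNG2 was at 0.41 and 0.71 with IFN-λ4 and IFN-λ1 and at -0.25 with IFN-α, a gap of 0.81. At 6 h against untreated, F13B was at 0.53 and 0.78 with IFN-λ4 and IFN-λ1 and at -0.15 with IFN-α, a gap of 0.81.

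Between 16 h and 6 h the probe shared by ROCK1 and ROCK1P1 was at 0.26 and 0.14 with IFN-λ4 and IFN-λ1 and at -0.61 with IFN-α, a gap of 0.82. The probe shared by TUBA1A with TUBA3C, TUBA3D and TUBA3E was at -0.14 and -0.30 with IFN-λ4 and IFN-λ1 and at 0.16 with IFN-α, a gap of -0.38.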

How the results depend on the processing

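The mean difference between 16 h and 6 h kept its sign for the 8 genes under all 63 combinations of gene and alternative that gave a value, the other probes aside, moving by less than the SD over interferons. Much of this was fixed in advance, since the genes were chosen for this difference. Its sign was the same with all 3 interferons in each gene, so leaving out an interferon could not turn it. Such an omission also cannot move a mean of 3 values by as much as their SD. Dropping the dim filter left the mean differences unchanged. The mean difference is thus described here, not tested. It ranged from 1.46 to 2.18 for ROCK1, 1.41 to 1.54 for IK, 1.13 to 1.45 for DGCR5, 1.17 to 1.67 for F13B, 1.07 to 1.76 for RIF1, 0.78 to 1.82 for CCNG2, -1.96 to -1.48 for TUBA1A and -2.22 to -1.39 for F2RL2. With the mean over probes DGCR5 was below the dim level. Using the other probe turned ROCK1 to -0.0701, and gave 0.10 for CCNG2, 0.25 for DGCR5 and -0.09 for TUBA1A; the cause was not tested.

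The count of genes called between 16 h and 6 h was 0 and ranged from 0 to 2674 when an interferon was left out. Between treated and untreated arrays 15 genes were called, and 10 to 37 when an interferon was left out. Between IFN-λ and IFN-α 20 were called, 131 with median centring, 47 with the mean over probes, and 19 to 418 when an interferon was left out. Between IFN-λ4 and IFN-λ1 0 were called, 1 without the filter on dim genes and 1 with the mean over probes. The cause of these changes was not tested. For the 8 genes the tested comparisons gained 3 calls in 205 recomputed values, named above as a description only, and 5 values changed sign without a call. No replicate numbers pair the arrays. The comparison of times was paired within each interferon and those of interferons within each time. Leaving out that block changed no call on the 8 genes, but none of them was called with it, so no call could be lost. Dim values limit several genes at 6 h. Below the dim level of 265 units lay all 3 arrays of DGCR5 and the IFN-α and IFN-λ4 arrays of RIF1 (179 and 125). So did the IFN-λ4 arrays of CCNG2 (154) and ROCK1 (231). All differences of DGCR5, the IFN-α difference of RIF1 and the IFN-λ4 differences of RIF1, CCNG2 and ROCK1 thus rest on dim 6 h values. On the normalized log2 scale the IFN-α array of DGCR5 at 16 h, at 7.97, was also under the dim level of 8.05.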
